A study of Homo sapiens with 8 samples.

Results

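The mRNAs of 10 metalloproteinases, 6 of the ADAMTS family (ADAMTS1, ADAMTS4, ADAMTS5, ADAMTS6, ADAMTS7 and ADAMTS12) and 4 of the ADAM family (ADAM9, ADAM12, ADAM17 and ADAM19), were followed in LX-2 cells, a human line of hepatic stellate cells (HSCs). The genes were picked by symbol from the 16796 genes of the count files, and all 10 were found and tested. RNA-seq libraries came from 4 control cultures given the vehicle DMSO and 4 cultures given OSMI-1 at 50 µM (OGTi), each for 24 h in medium containing 5% serum. OSMI-1 is a chemical inhibitor of O-GlcNAc transferase (OGT), the enzyme that puts the sugar O-GlcNAc on intracellular proteins, and the comparison asked how this inhibition changes the transcriptome of myofibroblastic HSCs. Both groups were the same cell line with no other allele or agent, at a single dose and a single time, so the data describe this line only and not stellate cells in a liver.

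ADAMTS proteases are secreted zinc enzymes that carry thrombospondin motifs and cut proteoglycans and other proteins of the extracellular matrix. ADAM proteases are mostly held in the cell membrane, where they release the outer part of other membrane proteins, a step known as shedding that frees growth factors and cytokine receptors. In the liver, activated stellate cells make and remodel scar matrix, and both families act on that matrix or on the signals around it.

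Under OGTi, 6 of the 10 protease mRNAs fell, 2 rose and 2 did not pass the test. ADAMTS5 and ADAMTS1 fell the most, to 9.37-fold and 5.44-fold lower levels, and ADAM19, ADAMTS6, ADAM12 and ADAM9 fell by smaller steps of 2.23-fold to 1.59-fold. ADAM17 and ADAMTS7 rose, by 1.36-fold and 1.28-fold. A gene was called when the adjusted p of the DESeq2 Wald test (q), with Benjamini-Hochberg adjustment over all genes, was 0.05 or lower. By that rule 46.6% of the 14028 genes tested were called, 24.0% as lower and 22.7% as higher, so a call by itself was common in this comparison. Of these genes 4.48% were called and at least 2-fold lower, as were 4 of the 10 members (ADAMTS5, ADAMTS1, ADAM19 and ADAMTS6). The libraries of the groups did not overlap for 8 members, against 40.0% of the genes tested. The median log2 fold change was -0.83 over the 10 members and 0.00 over all genes tested. The members were chosen with earlier results of these data known, so setting them beside all genes is a description and not a test. In bulk RNA, fewer cells that express a gene and less of its mRNA per cell cannot be told apart.

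Libraries held 24166756 to 28201215 counts, and 12829 to 13180 genes reached 10 counts. OGT mRNA had 5636 ± 260 normalized counts in control libraries and 4146 ± 477 in OGTi libraries (SD, n = 4 each), and OGA, which removes the sugar, had 3159 ± 423 and 904 ± 85.3. Markers of stellate cells summed to 205321 to 243972 normalized counts in control libraries and 148220 to 173462 in OGTi libraries. Of the 9 tested 8 fell, where 24.0% of all genes tested were called lower, and DES and LRAT stayed under 10 in every library. Much of the fall in the sum was COL1A1, from 84778 ± 5372 to 43931 ± 5335, and TAGLN, from 29724 ± 6726 to 14023 ± 1651. VIM, the marker with the highest control mean, had 95086 ± 8983 and 89632 ± 13605 and was not called (DESeq2 q = 0.323). The leukocyte list summed to 2503 to 4090 and 5628 to 9405, nearly all of it CD68, a lysosomal protein, while PTPRC had at most 11.5 normalized counts. Cholangiocyte markers summed to 681 to 1151 and 955 to 1273. Most of this was SOX9, which rose from 834 ± 193 to 1045 ± 137, while KRT7 fell from 111 ± 33.4 to 53.8 ± 18.8. Endothelial markers summed to 49.7 to 91.1 and 17.0 to 33.8, and the hepatocyte list to 19.5 to 74.0 and 26.0 to 74.0. The endothelial change was mostly CDH5, with few counts, from 37.3 ± 9.59 to 3.86 ± 2.10, while VWF and PECAM1 were not called. The sums moved with the groups for the stellate, leukocyte and endothelial lists, and their part in the protease results was not tested.

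ADAMTS1 and ADAMTS5 cut the large proteoglycans versican and aggrecan. Normalized counts (counts divided by the library's size factor) of ADAMTS5 were 1800, 1922, 2387 and 1672 in control replicates 1 to 4, and 221, 207, 192 and 203 in OGTi replicates 1 to 4. The lowest control library was thus far above the highest OGTi library. The mean went from 1945 ± 311 to 206 ± 11.9 (SD, n = 4 each), that is a log2 fold change of -3.23 ± 0.12 (SE, 95% interval -3.46 to -3.00, DESeq2 q = 4.55e-161). Among the 10994 genes averaging at least 100 normalized counts, only 6 had a lower log2 fold change.

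ADAMTS1 counts were 4413, 4566, 5532 and 4835 in control libraries and 1081, 848, 823 and 813 in OGTi libraries. Again no OGTi library came near the control range, and OGTi replicate 1 stood above the other three. The mean went from 4837 ± 495 to 891 ± 127 (SD, n = 4 each), that is a log2 fold change of -2.44 ± 0.10 (SE, 95% interval -2.65 to -2.24, DESeq2 q = 9.33e-120), and 21 of the same 10994 genes had a lower value. By replicate number the log2 ratio of OGTi to control was -2.03, -2.43, -2.75 and -2.57 for ADAMTS1, and -3.03, -3.22, -3.63 and -3.04 for ADAMTS5.

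ADAMTS1 (hg38, chr21:26835755-26845409) and ADAMTS5 (chr21:26917922-26967088) lie near each other on the minus strand of chromosome 21. Between them are 72.5 kb, with 0 annotated genes wholly inside. A long noncoding RNA gene and the microRNA gene MIR4759 overlap ADAMTS5 on the opposite strand. The falls of ADAMTS1 and ADAMTS5 were unequal. Per kilobase of transcript, the level of ADAMTS1 was 4.66 ± 0.484 times that of ADAMTS5 in control and 8.01 ± 0.740 times in OGTi libraries (SD, n = 4 each). The control ratios of 4.30 to 5.37 did not overlap the OGTi ratios of 7.43 to 9.07.

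ADAMTS6, which acts on fibrillin microfibrils, was lower in each of the 4 OGTi libraries than in any control library. It had 1734, 1906, 2552 and 2313 normalized counts in control libraries and 969, 824, 1052 and 1112 in OGTi libraries. The highest OGTi library, replicate 4, stayed well below control replicate 1. The mean fell from 2126 ± 374 to 989 ± 125 (SD, n = 4 each), that is a log2 fold change of -1.10 ± 0.09 (SE, DESeq2 q = 2.86e-29), or 2.14-fold lower. The gene (chr5:65148738-65481920, minus strand) has 25 exons in its canonical transcript.

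ADAMTS7 and ADAMTS12 are closely related enzymes that cut cartilage oligomeric matrix protein. ADAMTS7 (chr15:78759206-78811464) had 960, 798, 800 and 879 normalized counts in control libraries and 1111, 1140, 1133 and 1010 in OGTi libraries. The groups were apart, with control replicate 1 just below OGTi replicate 4. The mean rose from 859 ± 76.8 to 1099 ± 60.5 (SD, n = 4 each), that is a log2 fold change of 0.36 ± 0.10 (SE, DESeq2 q = 0.00149), and without replicate 2 the q was 0.0449. The annotation holds 3 pseudogenes of ADAMTS7 and the count files hold 0 of them, so its reads may come in part from these copies and its level is uncertain, although its expected counts were whole numbers in all 8 libraries.

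ADAMTS12 (chr5:33523535-33892019) had 2818, 3819, 3877 and 3457 normalized counts in control libraries and 2972, 3581, 3133 and 3019 in OGTi libraries, and these ranges overlapped. Its mean was 3493 ± 487 in control and 3176 ± 278 in OGTi libraries (SD, n = 4 each), that is a log2 fold change of -0.13 ± 0.08 (SE, 95% interval -0.29 to 0.03, DESeq2 q = 0.188). OGTi was lower in 3 of 4 pairs. Without replicate 1, where OGTi was the higher, the log2 fold change was -0.20 and q was 0.0461.

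ADAMTS4, an aggrecanase like ADAMTS5, was the least abundant member. It had 128, 112, 109 and 96.7 normalized counts in control libraries and 153, 174, 140 and 105 in OGTi libraries. OGTi was higher in 4 of 4 pairs but the ranges overlapped. The means of 111 ± 12.7 and 143 ± 28.7 (SD, n = 4 each) gave a log2 fold change of 0.35 ± 0.21 (SE, 95% interval -0.07 to 0.76, DESeq2 q = 0.172), which did not pass the test. Fractional counts in 6 libraries show that some of its reads were shared with other places. The gene lies at chr1:161184302-161199054 on the minus strand.

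**Figure D1:**
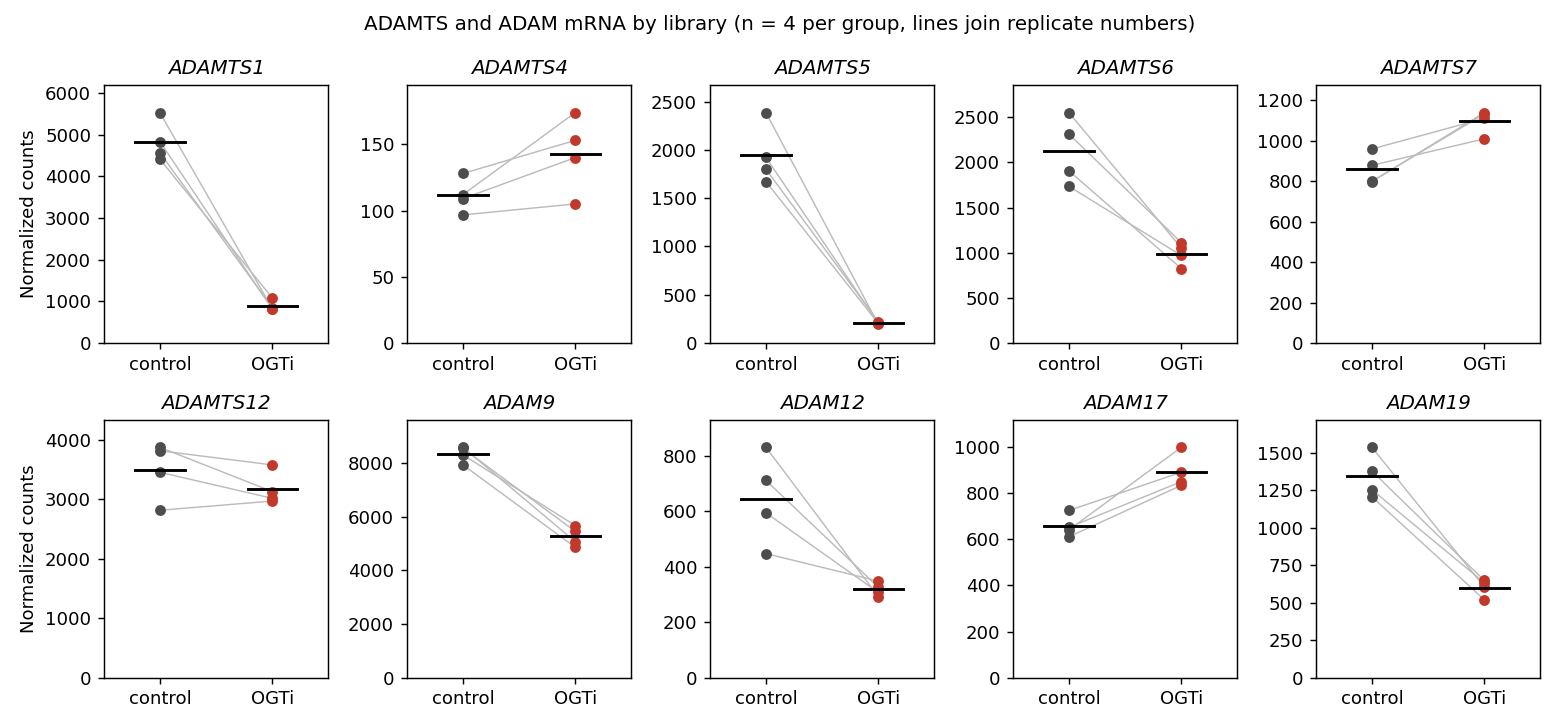
Normalized counts (y axis, starting at 0, a scale of its own in each panel) of the 10 proteases in the control and OGTi libraries (n = 4 per group). Points are libraries, black bars are means and grey lines join libraries with the same replicate number. ADAMTS5 went from 1672 to 2387 in control to 192 to 221 in OGTi libraries, while the ranges of ADAMTS4 and ADAMTS12 overlapped.

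Among the ADAM members, ADAM9, ADAM12 and ADAM19 fell while ADAM17 rose. ADAM9, a widely expressed sheddase, had 7930, 8301, 8583 and 8546 normalized counts in control libraries and 4856, 5669, 5067 and 5451 in OGTi libraries. It was the most abundant member in both groups and its ranges were well apart. The mean fell from 8340 ± 301 to 5261 ± 367 (SD, n = 4 each), that is a log2 fold change of -0.67 ± 0.07 (SE, DESeq2 q = 4.92e-21), or 1.59-fold lower. The gene lies at chr8:38996754-39105445.

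ADAM12, known for its expression in activated stellate cells and other myofibroblasts, cuts the IGF-binding proteins IGFBP3 and IGFBP5. It had 447, 594, 830 and 711 normalized counts in control libraries and 348, 307, 292 and 326 in OGTi libraries. The OGTi libraries lay close together and all below the control libraries, which themselves spread widely. The mean fell from 645 ± 164 to 318 ± 24.1 (SD, n = 4 each), that is a log2 fold change of -0.99 ± 0.16 (SE, DESeq2 q = 6.03e-09). By replicate number the log2 ratio was -0.36, -0.95, -1.51 and -1.13, and the fitted value ran from -1.19 to -0.82 when each replicate was left out in turn. The gene lies at chr10:126012381-126388477 on the minus strand.

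ADAM19, a sheddase of neuregulin, had 1377, 1253, 1536 and 1206 normalized counts in control libraries and 648, 633, 604 and 519 in OGTi libraries. Each OGTi value was below every control value by a wide margin. The mean fell from 1343 ± 147 to 601 ± 57.6 (SD, n = 4 each), that is a log2 fold change of -1.16 ± 0.10 (SE, DESeq2 q = 4.42e-29). The gene (chr5:157395534-157575775, minus strand) overlaps CYFIP2 and NIPAL4 on the opposite strand. An unnamed protein-coding gene overlaps it on the same strand, and whether that gene took part in its counts was not tested.

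ADAM17, also called TACE, releases tumour necrosis factor and several ligands of the EGF receptor. It had 611, 652, 725 and 641 normalized counts in control libraries and 834, 850, 891 and 999 in OGTi libraries. All OGTi libraries were above all control libraries. The mean rose from 657 ± 48.5 to 894 ± 74.1 (SD, n = 4 each), that is a log2 fold change of 0.44 ± 0.10 (SE, 95% interval 0.24 to 0.65, DESeq2 q = 1.06e-04). The gene (chr2:9488486-9556732, minus strand) overlaps IAH1 on the opposite strand.

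To compare levels between genes, normalized counts were divided by the length of the canonical transcript. In control libraries the level per kilobase was 2028 for ADAM9, 933 for ADAMTS1, 407 for ADAMTS12, 291 for ADAMTS6, 207 for ADAM19 and 202 for ADAMTS5. Then came ADAMTS7 with 156, ADAM17 with 150, ADAM12 with 81.3 and ADAMTS4 with 11.4. Neighbours in this order whose ranges over libraries overlapped were ADAMTS12 and ADAMTS6, ADAM19 and ADAMTS5, ADAMTS5 and ADAMTS7, and ADAMTS7 and ADAM17. In OGTi libraries the level per kilobase was 1279 for ADAM9, 371 for ADAMTS12, 203 for ADAM17, 199 for ADAMTS7 and 172 for ADAMTS1. ADAMTS6 followed with 135, ADAM19 with 92.7, ADAM12 with 40.1, ADAMTS5 with 21.4 and ADAMTS4 with 14.6. Here the overlapping neighbours were ADAM17 and ADAMTS7, and ADAMTS7 and ADAMTS1.

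**Figure D2:**
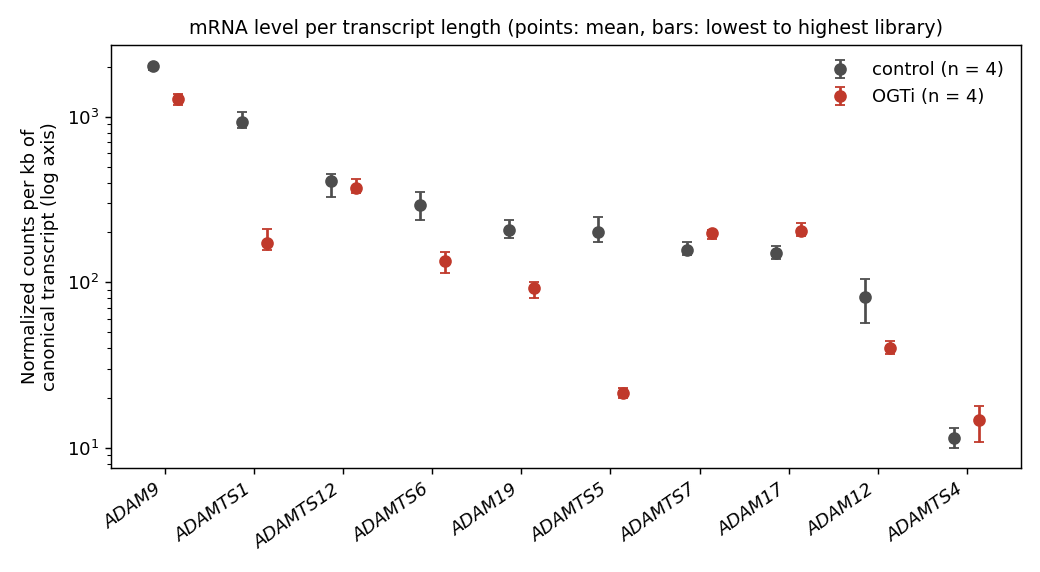
Normalized counts per kilobase of canonical transcript (y axis, log scale) of the 10 proteases, ordered by their control level. Points are means of 4 libraries and bars run from the lowest to the highest library, in grey for control and red for OGTi. ADAMTS1 moved from 933 to 172 and ADAMTS5 from 202 to 21.4, whereas ADAM17 and ADAMTS7 sat higher under OGTi.

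The mix among the chosen members of each family moved with these changes, and the sums below leave out all other family genes. The summed level of the 6 ADAMTS members per kilobase was 2001 ± 201 in control and 913 ± 27.8 in OGTi libraries (SD, n = 4 each). ADAMTS1 supplied 46.6% ± 0.929 of that sum in control and 18.8% ± 2.45 in OGTi libraries, and ADAMTS5 supplied 10.1% ± 0.957 and 2.35% ± 0.124. The share of ADAMTS12 went from 20.3% ± 1.90 to 40.6% ± 2.92 and that of ADAMTS7 from 7.88% ± 1.39 to 21.8% ± 0.720, with no overlap between groups. The level of ADAMTS12 itself did not rise, at 407 per kilobase in control and 371 in OGTi libraries, and was not called. The share of ADAMTS6 overlapped between groups, at 14.5% ± 1.33 and 14.9% ± 2.30, although its level fell. For the 4 ADAM members the sum was 2466 ± 108 and 1616 ± 90.9. ADAM9 held 82.3% ± 1.22 and 79.1% ± 1.15 of it, and ADAM17 held 6.06% ± 0.228 and 12.6% ± 0.954. These are not shares of all ADAM mRNA, because ADAM10 and ADAM15 are outside the sum. ADAM15 had 5288 ± 202 and 7397 ± 773 normalized counts on a canonical transcript of 2936 bases, shorter than the 4112 of ADAM9.

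RefSeq promoter windows (GRCh38.p14) were matched for 6 of the 10 members, namely ADAMTS6, ADAMTS7, ADAMTS12, ADAM12, ADAM17 and ADAM19. The 250 bases before each start were searched on both strands for GGAATG, whose other strand reads CATTCC. These are the core letters read by TEAD factors, which are among the regulators the study examined. The second search was for TGANTCA with any base at N, a loose form of AP-1 sites, whose usual middle base is C or G. The TEAD letters were in 11.9% and the loose AP-1 letters in 6.57% of the 35116 windows of that length. The 3 windows that held a match are printed 5′ to 3′ in the direction of the gene, with the match in capitals, because they belong to a gene that fell (ADAMTS6), a gene that rose (ADAM17) and a gene that was not called (ADAMTS12). They are at chr5:65481921-65482170, chr2:9555831-9556080 and chr5:33891991-33892240, all on the minus strand. Starts here are those of RefSeq, and the gene positions given above are those of GENCODE, whose ADAM17 reaches past the whole printed window and whose ADAMTS12 reaches into its window.
ADAMTS6: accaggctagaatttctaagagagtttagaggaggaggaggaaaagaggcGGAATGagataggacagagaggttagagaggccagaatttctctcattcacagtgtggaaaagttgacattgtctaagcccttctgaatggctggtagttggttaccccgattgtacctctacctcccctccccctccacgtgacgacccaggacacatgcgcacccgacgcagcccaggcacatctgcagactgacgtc
ADAM17: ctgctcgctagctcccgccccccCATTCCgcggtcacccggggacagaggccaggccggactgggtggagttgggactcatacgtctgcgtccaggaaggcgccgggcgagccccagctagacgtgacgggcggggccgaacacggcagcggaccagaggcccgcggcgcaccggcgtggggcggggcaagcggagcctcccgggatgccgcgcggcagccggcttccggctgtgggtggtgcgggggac
ADAMTS12: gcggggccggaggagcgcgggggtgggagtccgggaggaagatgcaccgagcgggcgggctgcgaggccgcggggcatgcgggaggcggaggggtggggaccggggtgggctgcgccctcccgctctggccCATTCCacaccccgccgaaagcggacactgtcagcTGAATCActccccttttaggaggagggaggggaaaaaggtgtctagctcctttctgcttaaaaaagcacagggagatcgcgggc
The TEAD letters stood 200 to 195 bases before the RefSeq start of ADAMTS6, 227 to 222 before that of ADAM17 and 119 to 114 before that of ADAMTS12. ADAMTS12 also held TGAATCA, 84 to 78 bases before its RefSeq start. It matches the loose AP-1 letters but has A in the middle and not the usual C or G. The windows of ADAM12, ADAM19 and ADAMTS7 held neither. A match of letters is a description of the sequence and not a measured binding site.

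Other genes of the families were taken from fixed name lists. Of 13 other ADAMTS genes 6 were tested, and 3 fell, 1 rose and 2 did not pass, where 46.6% of all genes tested were called. ADAMTS2, which trims the ends of procollagens, had 172 to 205 normalized counts in control libraries and 49.3 to 102 in OGTi libraries, a log2 fold change of -1.38 ± 0.23 (SE, DESeq2 q = 2.45e-08). ADAMTS15, which cuts versican, went from 306 ± 93.0 to 151 ± 44.3 (SD, n = 4 each), and ADAMTS16 from 566 ± 111 to 339 ± 53.7. The gene that rose was ADAMTS13, the protease of von Willebrand factor, with 28.3 ± 9.46 and 69.3 ± 23.0 normalized counts, named here after its value was seen.

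Of 17 other ADAM genes 9 were tested, of which 1 fell, 2 rose and 6 did not pass, beside 46.6% of all genes called. ADAM10, the closest relative of ADAM17 and also a major sheddase, had 4092, 3987, 4539 and 3853 normalized counts in control libraries and 3717, 3162, 3142 and 3509 in OGTi libraries. The fall was small and the ranges were apart. Its log2 fold change was -0.28 ± 0.08 (SE, DESeq2 q = 0.00227), and without replicate 3 it was -0.21 with q = 0.0619. ADAM15 rose from 5288 ± 202 to 7397 ± 773 (SD, n = 4 each), that is a log2 fold change of 0.48 ± 0.08 (SE, DESeq2 q = 1.58e-08). ADAM22, which lacks protease activity and binds LGI proteins in nerve cells, rose from 63.7 ± 15.1 to 175 ± 27.2.

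ADAMTS-like proteins share the domains of ADAMTS proteases outside the catalytic part and have no protease activity. All 7 were tested, and 3 fell, 1 rose and 3 did not pass, beside 46.6% of all genes called. ADAMTSL5 had a log2 fold change of -1.09, ADAMTSL4 of -0.72 and ADAMTSL1 of -0.55, with DESeq2 q of 3.64e-10, 2.61e-08 and 3.58e-08. THSD4, which binds fibrillin, rose from 1777 ± 279 to 2200 ± 260 (SD, n = 4 each) with overlapping ranges and a DESeq2 q of 0.0164, and without replicate 1 its log2 fold change was 0.13 with q = 0.240. The median log2 fold change was -0.81 for the other ADAMTS genes, -0.55 for the ADAMTS-like genes and 0.13 for the other ADAM genes, beside 0.00 for all genes tested. These medians include genes with few counts. Only 3 of the 6 other ADAMTS, 4 of the 7 ADAMTS-like and 5 of the 9 other ADAM genes averaged at least 100 normalized counts.

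**Figure D3:**
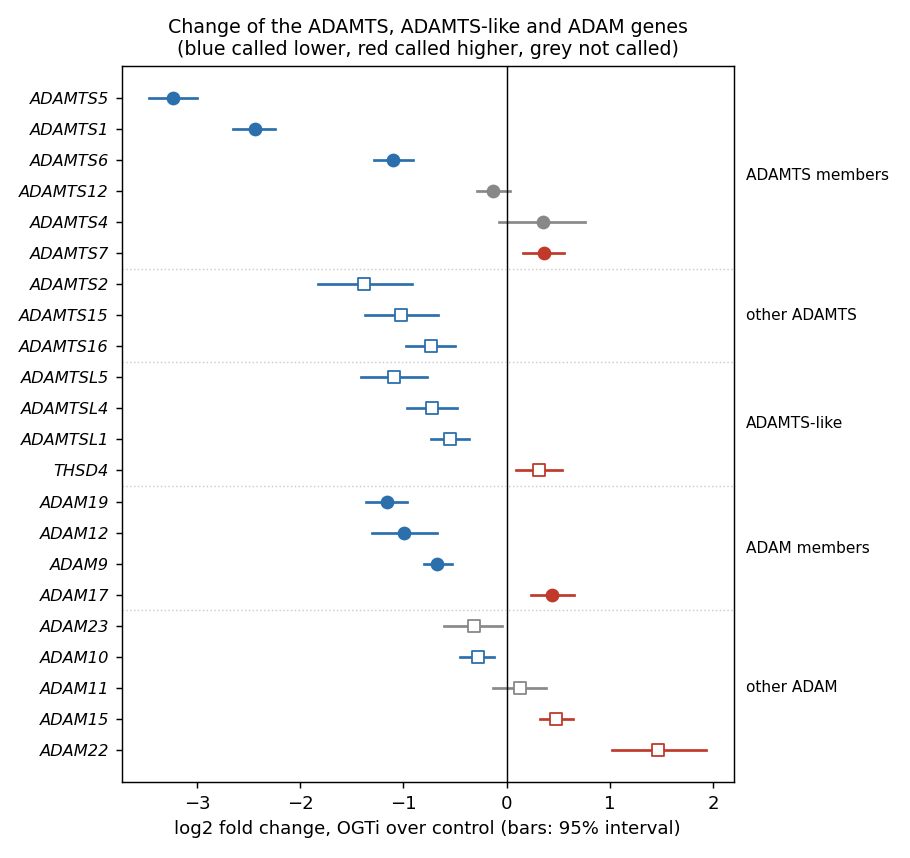
Log2 fold change of OGTi over control (x axis) with its 95% interval for the ADAMTS, ADAMTS-like and ADAM genes averaging at least 100 normalized counts. Filled circles are the 10 members and open squares the other genes, coloured blue when called lower, red when called higher and grey when not called. ADAMTS5 at -3.23 and ADAMTS1 at -2.44 lie to the left of every other gene plotted.

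Of 8 genes for inhibitors and clearance receptors of these enzymes 6 were tested, and 2 fell, 1 rose and 3 did not pass, a share called near the 46.6% of all genes. TIMP3, the tissue inhibitor that acts on ADAM17 and on the aggrecanases, had 13648, 11139, 12470 and 11838 normalized counts in control libraries and 8197, 8425, 7490 and 7663 in OGTi libraries, with no overlap. Its log2 fold change was -0.63 ± 0.07 (SE, DESeq2 q = 1.04e-15). TIMP1, which mainly inhibits matrix metalloproteinases and ADAM10, rose from 12613 ± 887 to 17868 ± 5087 (SD, n = 4 each, DESeq2 q = 5.36e-06), and OGTi replicate 1 was its highest library at 25186. SDC4, a syndecan that takes part in activating ADAMTS5, fell from 5240 ± 466 to 4222 ± 703, with a log2 fold change of -0.32. LRP1, the receptor that takes up ADAMTS4 and ADAMTS5, had 10809 ± 854 and 9893 ± 781, a log2 fold change of -0.13 (DESeq2 q = 0.184), and without replicate 1 it was -0.21 with q = 0.0133.

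ADAM and ADAMTS enzymes are made as inactive precursors that proprotein convertases cut. FURIN, the main convertase, fell from 5453 ± 468 to 4405 ± 315 normalized counts (SD, n = 4 each), that is a log2 fold change of -0.31 ± 0.07 (SE, DESeq2 q = 6.68e-05). PCSK7 had 2005 ± 110 and 2005 ± 101 and did not pass. PCSK5 rose from 17.1 ± 5.86 to 82.2 ± 35.9, and like PCSK7 was named after its values were seen.

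Of 10 matrix substrates of the ADAMTS enzymes only 4 were tested, and 1 fell, 1 rose and 2 did not pass. Over all genes tested 46.6% were called. VCAN, which encodes versican, had 193, 313, 434 and 370 normalized counts in control libraries and 183, 208, 143 and 120 in OGTi libraries. Its control replicate 1 lay within the OGTi range. The log2 fold change was -0.97 ± 0.23 (SE, DESeq2 q = 8.56e-05). TFPI2, a protease inhibitor that ADAMTS1 cuts, had 420 to 430 normalized counts in control libraries and 1392, 668, 565 and 649 in OGTi libraries, a log2 fold change of 0.85 ± 0.29 (SE, DESeq2 q = 0.00963). Without replicate 1 the log2 fold change was 0.56, and without replicate 2 it was 0.92 with q = 0.0516.

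The list of 12 ADAM17 and ADAM10 regulators held 6 genes tied to ADAM17 (the iRhoms RHBDF1 and RHBDF2, their cofactor FRMD8, the sorting protein PACS2 and the integrin subunits ITGA5 and ITGB1) and 6 tetraspanins of the TspanC8 group, which carry ADAM10 to the surface. All 12 were tested, and 5 rose, 2 fell and 5 did not pass. Over all genes tested 22.7% were called higher and 24.0% lower. RHBDF1, which takes ADAM17 through the secretory pathway, rose from 949 ± 80.8 to 1227 ± 89.7 normalized counts (SD, n = 4 each), and FRMD8 rose from 1059 ± 92.3 to 1390 ± 61.8, both without overlap between groups. Their log2 fold changes were 0.37 and 0.39, beside 0.44 for ADAM17, while RHBDF2 had 0.02 (DESeq2 q = 0.917). TSPAN5 rose by a log2 fold change of 0.48 and TSPAN14 by 0.28. TSPAN17 and ITGB1 fell, with log2 fold changes of -0.27 and -0.22, and ITGA5 rose by 0.19, named after their values were seen, as was RHBDF2.

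Of 21 proteins that ADAM enzymes shed or cut 18 were tested, and 7 fell, 4 rose and 7 did not pass. Over all genes tested 24.0% were called lower and 22.7% higher. IGFBP5, a substrate of ADAM9 and ADAM12, had 54573, 60156, 73744 and 50591 normalized counts in control libraries and 17391, 15219, 16405 and 12328 in OGTi libraries, far apart. Its log2 fold change was -1.96 ± 0.08 (SE, DESeq2 q = 2.16e-123). NRG1, the neuregulin precursor that ADAM19 and ADAM17 shed, fell from 1529 ± 113 to 555 ± 105 (SD, n = 4 each, DESeq2 q = 3.19e-44), and L1CAM, an adhesion molecule, fell from 15365 ± 1732 to 7265 ± 2238. HBEGF, a ligand of the EGF receptor, fell from 3953 ± 255 to 2956 ± 308, with a log2 fold change of -0.42. TNFRSF1B, a receptor of tumour necrosis factor that ADAM17 sheds, rose from 1186 ± 138 to 2259 ± 217, a log2 fold change of 0.93 ± 0.08 (SE, DESeq2 q = 7.72e-28). TNF itself had 5 counts over all 8 libraries and was not tested. All of these are mRNA levels, and no protease activity or shedding was measured.

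**Figure D4:**
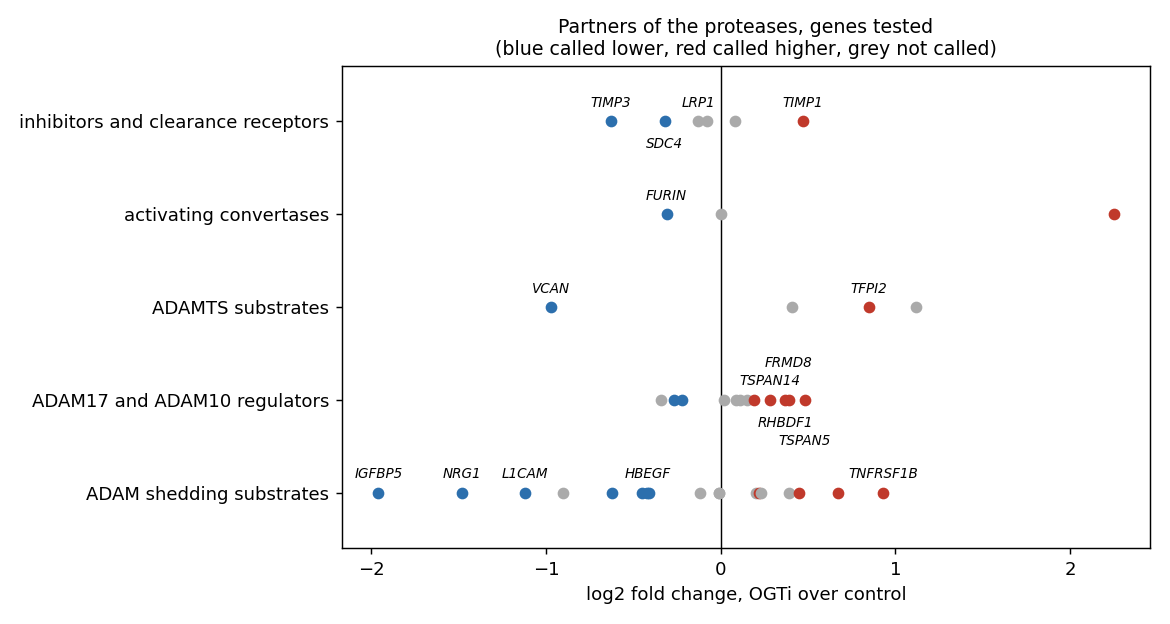
Log2 fold change of OGTi over control (x axis) for each tested gene of the 5 partner lists (rows), blue when called lower, red when called higher and grey when not called, with the genes of the naming rule labelled. TIMP3 at -0.63 and TIMP1 at 0.47 lie on opposite sides of 0, and IGFBP5 at -1.96 is the lowest gene plotted.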

How the data were processed

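RNA was measured by stranded, paired-end RNA-seq of polyadenylated RNA in 4 control and 4 OGTi cultures of LX-2 cells, described by the study as independent experiments. Per the submitters' processing notes, the authors aligned reads to hg38 with Bowtie2 2.3.5.1 and counted them per gene with RSEM 1.3.1. The deposited values are expected counts, that is estimated counts in which a read with several alignments is shared between genes, with no scaling for depth. The authors also deposited a comparison table from DESeq2 1.36.0 with fold changes and p-values, which was not used.

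Expected counts were rounded, genes with a total under 10 over the 8 libraries were left out, and 14895 genes were fitted by the DESeq2 1.42.0 Wald test (R 4.3.3), with median-of-ratios size factors, replicate number as a block, independent filtering and no shrinkage. Genes with q of 0.05 or lower were called. Samples were paired by replicate number because the study's methods do so. Deviations from the group mean correlated at 0.380, 0.304, 0.137 and 0.269 for replicates 1 to 4 across 11706 genes, which are not independent replicates. Libraries of a group differed beyond counting error (chi-square per degree of freedom of 8.66 to 36.2). Alternatives were DESeq2 without the block, edgeR 4.0.16 with and without it, TMM size factors, other filters and leaving out each replicate. The fit was tested on simulated data.

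Positions, transcript lengths and overlapping genes came from GENCODE 44 on hg38. Per-kilobase levels use the canonical transcript, which may not be the form these cells express. Listed genes beyond the counts tested had too few counts for a q or were not analysed here. The text names all 10 members, other family genes called and averaging at least 100 normalized counts, ADAM10, at most 4 such genes per partner list by size of change, TIMP3, LRP1, FURIN, VCAN and HBEGF, and OGT and OGA. The members and lists were chosen with earlier results of these data known.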

Additional observations from a re-analysis of the deposited data

Results flagged for a closer look

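In 3 of the 76 groups of 4 libraries examined, over the 38 named genes, a library stood apart from the other 3 by more than Dixon's 95% critical value, and chance flags about 1 in 20 groups. All were OGTi replicate 1. ADAMTS1 had 1081 normalized counts there and 813 to 848 in the other OGTi libraries, all below the lowest control library of 4413. SDC4 had 3173 there against 4469 to 4643, and TFPI2 had 1392 against 565 to 668. Without replicate 1 the calls of ADAMTS1, SDC4 and TFPI2 held, and the log2 fold change of TFPI2 was 0.56 in place of 0.85. Whether this library differed in handling was not tested.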

How the results depend on the processing

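Over 11 alternatives, the count of members called lower was 6 or 7 and of those called higher was 2, while calls over all genes numbered 5127 to 7074 beside 6541. For the 38 named genes, 413 of 418 alternative values kept their direction and side of the threshold, 3 lost the call, 2 gained it and 0 reversed. Each of these 5 came from leaving out a replicate, which also leaves fewer libraries: THSD4 (log2 fold change 0.13) lost it and ADAMTS12 (-0.20) and LRP1 (-0.21) gained it without replicate 1, TFPI2 (0.92) lost it without replicate 2, and ADAM10 (-0.21) without replicate 3. Leaving out each replicate in turn gave 5127 to 5690 calls over all genes and 6 to 7 members lower.

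Without the replicate block DESeq2 called 6307 genes and edgeR 6041, and edgeR with the block called 7074. Dropping the pairing changed no call of a named gene. Among the 8 members called with all libraries, the largest q under any alternative was 0.0449 (ADAMTS7, without replicate 2), and the smallest q of ADAMTS4 was 0.0822 (edgeR with the block). Control replicate 3 correlated more with OGTi replicate 4 (0.272) than with OGTi replicate 3 (0.137). Control replicate 4 correlated at 0.202 with OGTi replicate 3 and at 0.269 with OGTi replicate 4. These values do not tell which of replicates 3 and 4 belong together, and the labels' numbering was kept. The median log2 fold change of all genes stayed within -0.001 to 0.011 over the settings. ADAMTS4 had the fewest counts of the members and the widest standard error, 0.21.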
